A study of Mus musculus with 12 samples.

Results

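The nuclear-encoded subunits of the oxidative phosphorylation complexes were followed as a set of 85 genes among the 16728 genes of the expression table. A gene was a member if its symbol was that of a complex I subunit of the Ndufa, Ndufb, Ndufc, Ndufs or Ndufv series, a succinate dehydrogenase subunit (Sdha to Sdhd), a Uqcr subunit, Cyc1, Cycs, a Cox4 to Cox8 subunit or an Atp5 subunit. By the complex in which the protein works, 37 members belonged to complex I, 4 to complex II, 10 to complex III together with the cytochromes c, 17 to complex IV (Ndufa4 and Ndufa4l2 included) and 17 to complex V. The subunits encoded by mitochondrial DNA were not analysed here. Atp5s carries an Atp5 symbol although its product, a coupling factor, is not a fixed part of the ATP synthase.

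Oxidative phosphorylation takes electrons from NADH at complex I and from succinate at complex II, passes them through coenzyme Q to complex III, by cytochrome c to complex IV, and finally to oxygen. Complexes I, III and IV pump protons across the inner mitochondrial membrane, and complex V uses the return flow to make ATP. Electrons travel along iron-sulfur clusters and haem groups, so several subunits need iron, and the hepatocyte, which stores iron and makes glucose, urea and bile acids, depends on this ATP supply. All members are transcribed in the nucleus and made in the cytosol, and the complexes hold them in fixed ratios.

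RNA was sequenced from 12 libraries of liver-derived primary hepatocytes, hepatocytes isolated from the liver and kept in culture, of the C57BL/6 strain. All cells were grown in DMEM with 10% FBS, and 3 libraries made up each of 4 groups: wild type with AC (WT AC), wild type with FAC (WT FAC), Fxr-/- with AC (KO AC) and Fxr-/- with FAC (KO FAC). Both agents were given at 100 µM for 24 h. The labels abbreviate them and place the study under iron overload, and no group without an agent was included. Neither the number of mice behind a group nor whether libraries came from separate cultures is given, so p-values measure the spread between these libraries, which may be technical.

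The libraries held 16464494 to 18335700 estimated reads. Nr1h4, the gene of the bile acid receptor Fxr, was at 7.30 to 8.68 FPKM (fragments scaled by transcript length and library depth) in WT AC and 3.84 to 5.36 in KO AC, and at 3.78 to 4.24 in WT FAC and 1.72 to 2.68 in KO FAC. It was lower in the libraries labelled KO by 0.81 ± 0.14 (log2, SE) under AC in edgeR (adjusted p = 0.00053), so its transcript was reduced and not absent. FAC itself changed it by -0.95 ± 0.14 in WT (adjusted p = 0.00063, edgeR) and -0.88 ± 0.16 in KO (adjusted p = 0.0012). The ranges of WT FAC and KO AC overlapped, so the Nr1h4 level does not separate these groups. The labels do not say which part of the gene is deleted, and a value for the whole gene checks the label only in part. Of the hepatocyte markers, Alb averaged 9384 to 14825 FPKM over the groups, while Cps1 (0.66 to 4.35) and Tat (1.26 to 12.02) were low throughout. Of the 10 hepatocyte markers 5 were called higher and 2 lower with FAC in WT, 8 and 0 with FAC in KO, 6 and 3 in KO under AC, and 6 and 1 in KO under FAC. Their summed level was 16758 to 17310 FPKM in WT AC, 20771 to 21719 in WT FAC, 16657 to 17710 in KO AC and 19804 to 21219 in KO FAC. Cyp2e1, a cytochrome P450, averaged 77.4, 95.0, 465 and 753 FPKM in these groups. Ttr, Apoa1 and Serpina1a, which encode secreted plasma proteins, also had their lowest mean in WT AC and their highest in KO FAC. Apob, Tf and Hnf4a instead had their highest mean in WT AC. In the same order of groups Apob averaged 74.7, 43.5, 35.2 and 27.1 FPKM, and Alb 11205, 14825, 9384 and 10671. The 7 bile duct cell markers summed to 264 to 323 FPKM in WT and 62.5 to 109 in KO libraries, almost all of it Spp1, and the 7 measured stellate cell or fibroblast markers to 2.06 to 3.64 and 0.55 to 0.70. The 8 macrophage markers summed to 554 to 631 FPKM in WT AC and 856 to 894 in WT FAC. In KO AC they summed to 826 to 976 and in KO FAC to 857 to 1107. These sums came from Cd68 and Cd14, with Clec4f at a mean of 0.027 or less in every group. Other macrophage markers were lower in KO. In the order WT AC, WT FAC, KO AC and KO FAC, Lyz2 averaged 4.03, 2.97, 0.45 and 0.47 FPKM. Marco averaged 1.27, 0.37, 0.17 and 0.04, and Adgre1 0.78, 0.24, 0.11 and 0.03. Of 6 tested macrophage markers 2 were called higher and 3 lower in KO under each treatment. The 8 sinusoidal endothelial markers summed to 4.35 to 9.40 FPKM over all libraries, with Clec4g at 0 in 3 of the 4 groups, and 3 measured lymphocyte markers to at most 0.1. Several hepatocyte markers thus moved with the members and others did not, and the part of these cell types in the results was not tested.

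Levels were compared between genes as FPKM, which is scaled by transcript length. These are relative levels in bulk RNA, so fewer cells of a type and less RNA per cell cannot be told apart. The median member stood at 141 FPKM over all libraries, against 8.43 for all 12275 tested genes, and 55 of the 85 members were above 100 FPKM. Complexes IV and V had the highest median levels, with 240 and 239 FPKM, followed by complex III with 156, complex II with 104 and complex I with 92.2. The most abundant member was Cox7c, a small structural subunit of complex IV, at 1258 FPKM. It was followed by Cox6a1 (682), Cox4i1 (648) and Atp5b (634), the catalytic beta subunit of the ATP synthase. At the low end, 3 members failed the filter on low counts and were not tested: Cox4i2, Cox6b2 and Ndufb4b, with 16, 8 and 24.1 estimated reads over the 12 libraries. Read estimates were fractional in all libraries for Ndufb4 and Ndufb4c, in 58.3% for Ndufb4b, in 66.7% for Uqcrc2 and in 16.7% for Ndufa13, as arises when reads are divided between similar genes, so the values of these members are uncertain. The other 82 members were tested.

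Promoter windows were read from the RefSeq table for GRCm38.p6, from 250 bases before to 50 after each start, and 68 of the 85 members had an entry. Both strands were searched for 3 short motifs of factors known to act on these genes of different letters, whose matches may overlap: GCGCATGC (core of the NRF1 site), CCGGAAG (core of the ETS or GABP site) and AAGATGGC (core of the YY1 site). The first was in the windows of 11 of the 68 members (16.2%) and of 3.05% of all 27025 genes in the table, the second in 16 (23.5%) and 9.93%, and the third in 10 (14.7%) and 3.19%. At least 1 of them was in 31 members (45.6%) and 14.9% of all genes.

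The following stretches run from 120 bases before to 30 after the start, 5′ to 3′ on the gene's strand, with motif letters in capitals. Cycs, Sdhb, Uqcr11, Ndufs8 and Cox6a1 are members called higher in at least 1 comparison that hold an NRF1 or ETS core. Ndufs8 was also called lower in KO under AC. Sdha fell with FAC in KO, and Atp5b, which rose there, responded differently between genotypes. Their windows hold none of the 3 cores, which says only that these letters are absent there. With FAC in KO, 10 of 31 members with a motif and 13 of 35 without were called higher (15% of all tested genes). The stretches shown were picked by call and motif and cannot show a link between both. They lie at chr6:50566540-50566689 (minus strand), chr4:140961151-140961300 (plus), chr10:80406792-80406941 (minus), chr19:3912745-3912894 (minus), chr5:115348929-115349078 (minus), chr13:74350211-74350360 (minus) and chr10:128083187-128083336 (plus) in GRCm38.p6. In Cycs, Sdhb and Uqcr11 the NRF1 core, and in Ndufs8 and Cox6a1 the ETS core, read on the opposite strand. Cox6a1 has further matches upstream of the stretch shown.
Cycs: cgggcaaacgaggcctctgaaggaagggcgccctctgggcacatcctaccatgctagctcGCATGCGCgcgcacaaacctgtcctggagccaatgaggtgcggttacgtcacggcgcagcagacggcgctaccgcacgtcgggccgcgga
Sdhb: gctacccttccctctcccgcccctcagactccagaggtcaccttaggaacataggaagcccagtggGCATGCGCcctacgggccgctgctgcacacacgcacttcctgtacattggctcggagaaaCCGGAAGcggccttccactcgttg
Uqcr11: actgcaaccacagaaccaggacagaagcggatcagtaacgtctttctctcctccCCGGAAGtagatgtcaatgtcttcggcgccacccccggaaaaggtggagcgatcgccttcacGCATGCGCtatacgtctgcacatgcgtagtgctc
Ndufs8: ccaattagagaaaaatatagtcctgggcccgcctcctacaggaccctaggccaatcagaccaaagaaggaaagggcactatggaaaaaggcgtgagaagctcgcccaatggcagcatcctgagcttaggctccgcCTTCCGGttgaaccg
Cox6a1: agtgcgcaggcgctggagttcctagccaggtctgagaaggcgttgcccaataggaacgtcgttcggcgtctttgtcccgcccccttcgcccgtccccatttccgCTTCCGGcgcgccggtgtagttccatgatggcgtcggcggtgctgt
Sdha: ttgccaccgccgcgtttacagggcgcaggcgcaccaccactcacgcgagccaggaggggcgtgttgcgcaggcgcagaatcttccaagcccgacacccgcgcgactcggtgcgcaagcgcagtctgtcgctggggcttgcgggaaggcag
Atp5b: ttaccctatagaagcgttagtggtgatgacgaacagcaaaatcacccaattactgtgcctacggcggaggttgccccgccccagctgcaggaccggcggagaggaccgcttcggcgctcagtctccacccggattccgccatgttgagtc

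With FAC in WT cells, members were called higher at about the same share as all tested genes. Of the 82 tested members 8 were called higher and none lower at an adjusted p under 0.05 in edgeR, where 8.7% of all tested genes were called higher and 8.55% lower. At an unadjusted p under 0.05, 20 members passed. The share of members called higher, 9.76%, was close to that background. The median log2 fold change of the members was 0.12, against -0.002 over all tested genes, and 71 members lay above 0. Complex IV held 4 of the calls (Cox6a2, Cox6c, Cox7a2 and Cox7c), complex I 2 (Ndufa1 and Ndufc2), complex III 1 (Cycs) and complex V 1 (Atp5mpl).

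Cycs encodes cytochrome c, the carrier between complexes III and IV (gene 13063, chromosome 6, 50562563 to 50566569 in GRCm38.p6). Its level was 183, 201 and 181 CPM (read counts scaled by depth and TMM factor) with AC and 227, 223 and 228 with FAC in WT cells. Every WT FAC library lay above every WT AC library, a difference of 0.26 ± 0.08 (log2, SE; adjusted p = 0.047, edgeR). Ndufc2, an accessory subunit of complex I, was at 106, 120 and 114 CPM with AC and at 152, 142 and 159 with FAC. Its groups did not overlap either, and the difference of 0.41 ± 0.10 (adjusted p = 0.012) was the largest among the complex I members in WT. Cox7a2, the liver form of a small complex IV subunit, went from 77.9, 83.0 and 79.2 CPM to 101, 99.1 and 107, a rise of 0.35 ± 0.09 (adjusted p = 0.016, edgeR).

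The core subunits followed in every comparison gave small values with FAC in WT cells. The log2 fold change was 0.11 ± 0.06 for Ndufs1, which carries iron-sulfur clusters of complex I, and 0.03 ± 0.08 for the NADH-binding Ndufv1. It was 0.12 ± 0.07 for the Rieske iron-sulfur protein Uqcrfs1 and 0.06 ± 0.08 for the cytochrome c1 gene Cyc1. For Cox4i1 and Cox5a of complex IV it was 0.22 ± 0.07 (adjusted p = 0.054, edgeR) and 0.20 ± 0.08, and for the ATP synthase subunits Atp5a1 and Atp5b it was -0.16 ± 0.06 and -0.10 ± 0.05. None of these passed the threshold. The count of calls in WT rested on single libraries. Without WT AC 1 no member was called and the member median was 0.06. Without any other single library 1 to 7 were called higher, and a fit of the WT groups alone called 17 higher and 2 lower. Over all tested genes 1068 of 12275 were called higher with all libraries and 692 of 12421 without WT AC 1. With the WT groups alone 1574 of 11830 were called higher and 1771 lower.

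In KO cells FAC raised members of every complex. Of the 82 tested members 29 were called higher and 1 lower, against 15% and 14.6% of all tested genes, and 49 members passed an unadjusted p under 0.05. The median log2 fold change was 0.22 (all tested genes -0.002), and 76 members lay above 0. By complex, 12 of 36 tested members rose in complex I, 1 of 4 in complex II, 3 of 10 in complex III, 8 of 15 in complex IV and 5 of 17 in complex V, and the one member that fell was Sdha. The 8 members raised in WT included 6 that were also raised in KO (Ndufc2, Cycs, Cox6a2, Cox6c, Cox7a2 and Cox7c), that is 6 of 8 in the one list and 6 of 29 in the other. These comparisons share no libraries. The overlap of both lists over all tested genes is not given here.

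**Figure D1:**
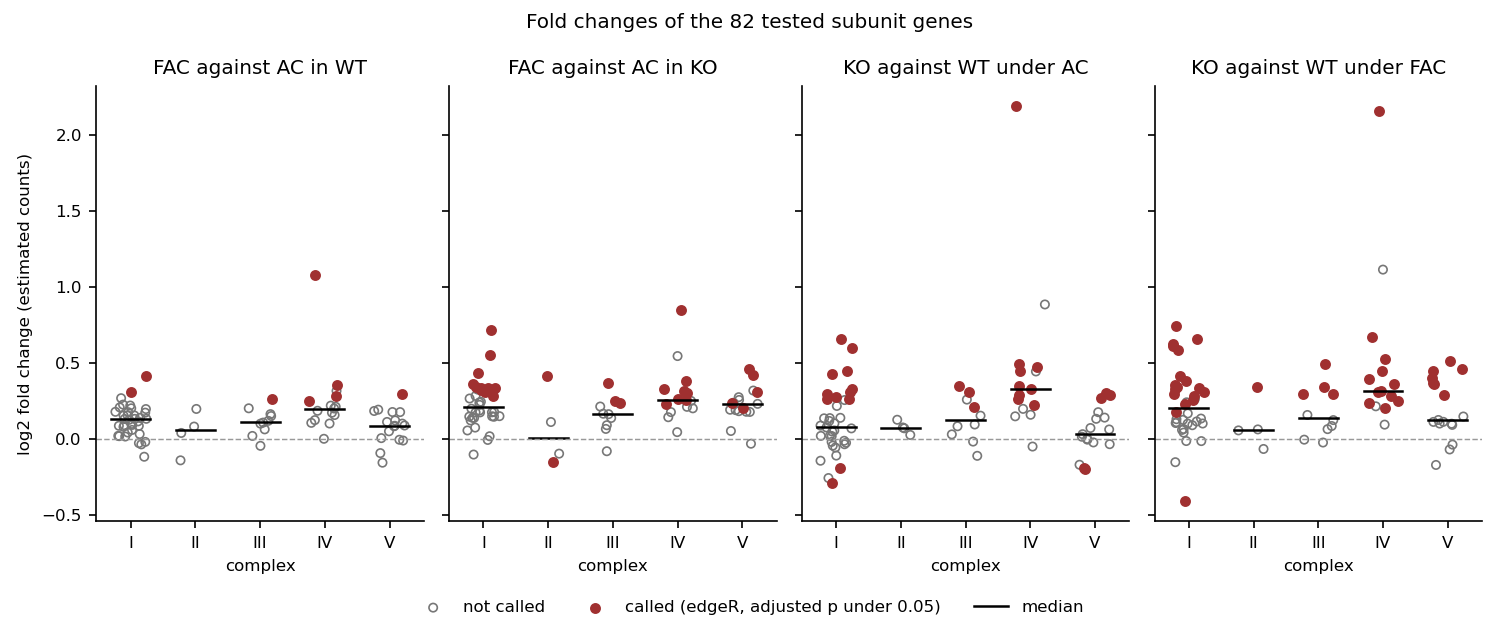
Log2 fold change (vertical axis, estimated counts) of each of the 82 tested members, grouped by complex, in 4 comparisons. Filled points passed edgeR at an adjusted p under 0.05, open points did not, and the line is the median. Filled points number 8 with FAC in WT, where 8.7% of all tested genes were called higher and 8.55% lower. They number 30 with FAC in KO, where these shares were 15% and 14.6%. The test of the difference between both effects called 1 member. Ndufa4l2 stands above 2 in both genotype comparisons.

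Among the members raised by FAC in KO, Ndufs8, an iron-sulfur subunit of complex I (gene 225887, chromosome 19, 3908863 to 3912774), was at 32.5, 27.3 and 23.9 CPM with AC and at 38.2, 41.8 and 42.6 with FAC. The groups did not overlap, and it rose by 0.55 ± 0.10 (log2, SE; adjusted p = 0.0018, edgeR). Atp5g1, one of 3 genes for the membrane ring subunit c of the ATP synthase, went from 90.9, 73.8 and 67.1 CPM to 98.5, 108 and 104. All KO FAC libraries were above all KO AC libraries, though KO AC 1 came near, and the rise was 0.42 ± 0.10 (adjusted p = 0.0082). Cox6a1, the liver form of a complex IV subunit, was at 324, 258 and 267 CPM with AC and 355, 393 and 358 with FAC, a rise of 0.38 ± 0.08 (adjusted p = 0.0045). Cycs rose here too, from 212, 184 and 162 CPM to 254, 228 and 237 (0.36 ± 0.08, adjusted p = 0.0061).

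Other members raised in KO included Uqcrq (0.25 ± 0.08) and Cyc1 (0.24 ± 0.08) of complex III, Cox6c (0.31 ± 0.08), Cox5a (0.25 ± 0.08) and Cox7a2 (0.32 ± 0.09) of complex IV, and Atp5d (0.31 ± 0.09), Atp5h (0.24 ± 0.08) and Atp5b (0.20 ± 0.05) of complex V, all as log2 fold changes with their SE. In complex I the largest rises were those of Ndufb4c (0.71 ± 0.14), with the fractional estimates described above, Ndufs8 and Ndufc1 (0.43 ± 0.14). Ndufs1 (-0.10 ± 0.06), Ndufv1 (0.20 ± 0.08), Uqcrfs1 (0.09 ± 0.07), Cox4i1 (0.20 ± 0.07, adjusted p = 0.052, edgeR) and Atp5a1 (-0.03 ± 0.06) did not pass.

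The count in KO depended on which libraries were used. KO AC 1 had higher levels of most members than the other KO AC libraries: its median log2 level against the WT AC mean was 0.29, against 0.09 in KO AC 2 and -0.02 in KO AC 3, and the KO FAC libraries were at 0.32, 0.40 and 0.33. Without KO AC 1, FAC raised 57 members in KO and lowered none. Without KO AC 3 the counts were 8 and 0, without KO AC 2 they were 12 and 1, without KO FAC 5 they were 9 and 0, and the KO groups fitted alone gave 11 and 0. Leaving out KO AC 1 with KO FAC 4 gave 61 raised, and leaving it out with KO FAC 6 gave 53. Counts over all tested genes moved too. With all libraries 1838 of 12275 were called higher, without KO AC 1 2065 of 12418, and without KO AC 3 1180 of 12429. Without KO AC 2 it was 1381 of 12418, without KO FAC 5 1290 of 12413, and with the KO groups alone 1107 of 11895. Leaving out KO AC 1 gave 2453 of 12394 with KO FAC 4 dropped too, and 1906 of 12347 with KO FAC 6 dropped.

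**Figure D2:**
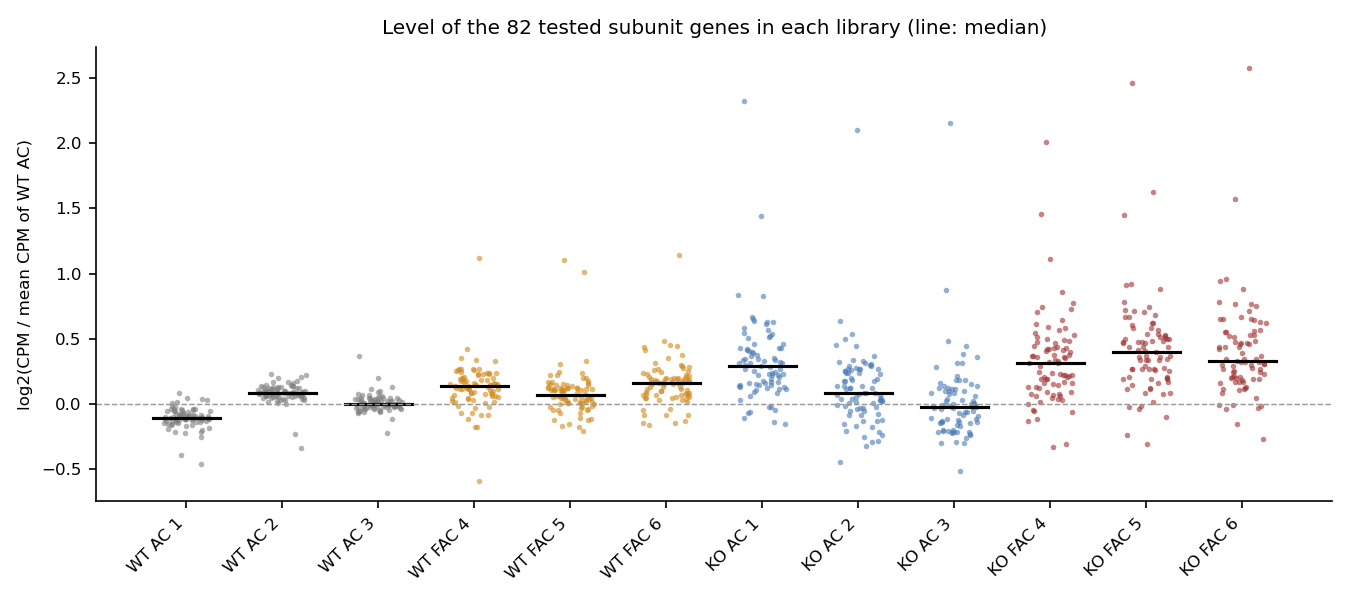
Each point is 1 of the 82 tested members in 1 library, as log2 of its CPM over its mean in WT AC (vertical axis), and the line is the library's median. The members of a library shift together: WT AC 1 has its median at -0.10 and WT AC 2 at 0.09, and KO AC 1 lies at 0.29, near the KO FAC libraries at 0.32 to 0.40.

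Within groups the members also moved as a block from library to library. Of the 82 tested members 6 were above the WT AC mean in WT AC 1, 80 in WT AC 2 and 42 in WT AC 3, while the median over all tested genes stayed between -0.03 and 0.001 in every library. In the KO AC libraries 74, 57 and 35 members were above that mean, and in the KO FAC libraries 74, 76 and 75. The spread between the medians of the KO AC libraries was therefore larger than the median effect of FAC in either genotype. Summed over the 85 members, the level was 9570 ± 536 CPM in WT AC, 10158 ± 253 in WT FAC, 10378 ± 973 in KO AC and 11828 ± 274 in KO FAC (SD, n = 3). As TPM, a transcript-based unit which weighs each gene by its molecules and not its reads, the sums were 22631 ± 425, 22729 ± 564, 23486 ± 1704 and 24017 ± 987.

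The size of these shifts depended on the scale, and with it the direction of the member median in 2 of 4 comparisons. With limma on log2(TPM + 1), the median of all tested genes itself moved by -0.10 with FAC in WT, -0.15 with FAC in KO, -0.11 for KO under AC and -0.17 for KO under FAC. The member median was -0.0063, 0.03, -0.033 and 0.03 in the same order. On that scale FAC called 3 members higher and 4 lower in WT and 5 higher and 6 lower in KO. KO against WT gave 12 higher and 11 lower under AC and 18 higher and 11 lower under FAC. Of all 12275 tested genes FAC called 578 higher and 1951 lower in WT and 862 and 3808 in KO. For KO against WT the counts over all tested genes were 1823 and 3838 under AC and 1942 and 4947 under FAC. Relative to the median of all genes, the member median was still higher by 0.10, 0.19, 0.08 and 0.20 in these 4 comparisons. With limma on log2(FPKM + 1) the member counts were 7 and 3, 14 and 3, 15 and 9, and 26 and 6. Over all tested genes they were 871 and 1236, 1296 and 2523, 2064 and 3385, and 2296 and 4281. A rise in CPM is thus relative to most genes.

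Whether FAC acted differently in KO and WT was tested as the difference of both effects. One member, Atp5b, was called (1.87% of all tested genes were called higher and 1.28% lower in this test), 9 members passed an unadjusted p under 0.05, and the median difference was 0.09. The other members' counts in WT and KO are therefore not shown to differ between genotypes. Without KO AC 3 the median difference was 0.01, and without KO AC 1 it was 0.17 with 5 members called. Of all 12418 genes tested without KO AC 1, 333 were called higher and 254 lower. Atp5b (gene 11947, chromosome 10, 128083307 to 128090388) was at 1121, 1191 and 1164 CPM in WT AC and 1092, 1067 and 1094 in WT FAC. In KO it was at 1041, 1003 and 983 CPM with AC and 1188, 1143 and 1151 with FAC. It was thus lower with FAC in WT, by a difference that did not pass (-0.10 ± 0.05), and rose in KO (0.20 ± 0.05, adjusted p = 0.0074, edgeR), a difference of effects of 0.30 ± 0.07 (log2, SE; adjusted p = 0.036). That call held in 11 of 22 alternatives and was lost without any one of 9 of the 12 libraries. For Ndufs8 the difference was 0.42 ± 0.15 (adjusted p = 0.14) and for Ndufs1 it was -0.22 ± 0.09 (adjusted p = 0.18). Without KO AC 1 and KO FAC 4 the test called 18 members higher. In that setting 990 of all 12394 tested genes were called higher and 928 lower.

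Under AC, KO cells had more of 25 members and less of 4 than WT cells in edgeR, against 21.7% of all tested genes called higher and 21.2% lower. The median log2 fold change was 0.12 (all tested genes -0.003), with 61 members above 0. Complex IV held 9 calls among 15 tested members, complex I 10 among 36, complex III 3 among 10 and complex V 3 among 17, and no complex II member was called. The 4 lower members were Ndufs1 and Ndufs8 of complex I and the alpha and beta subunits Atp5a1 and Atp5b, which form the catalytic head of the ATP synthase. Without KO AC 1 the counts were 14 higher and 6 lower and the member median was 0.02. Without WT AC 1 they were 13 and 3, and the lower count was 1 without WT AC 2 or without KO AC 2. Over all tested genes 2631 of 12418 were called higher and 2431 lower without KO AC 1. Without WT AC 1 these were 2156 and 2006 of 12421.

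Higher in KO under AC were Ndufa6 of complex I, at 62.1, 70.2 and 68.6 CPM in WT AC and 120, 104 and 93.6 in KO AC (0.66 ± 0.09, adjusted p = 6.3e-05, edgeR), and Ndufb9 (0.60 ± 0.10) and Ndufc2 (0.45 ± 0.10). No KO AC library overlapped the WT AC libraries for Ndufa6. In complex III Uqcr11 (0.35 ± 0.09), Uqcr10 (0.31 ± 0.08) and Uqcrq (0.21 ± 0.08) were higher. In complex IV, besides Ndufa4l2, Cox6c (0.49 ± 0.08), Cox7c (0.47 ± 0.07), Cox6a1 (0.45 ± 0.08) and Cox4i1 (0.32 ± 0.07) were higher, and in complex V Atp5g3 (0.30 ± 0.09), Atp5e (0.29 ± 0.09) and Atp5g2 (0.27 ± 0.07). Sdha (0.07 ± 0.05), Sdhb (0.12 ± 0.10), Cycs (-0.02 ± 0.08), Cyc1 (-0.11 ± 0.08), Uqcrfs1 (0.15 ± 0.07) and Ndufv1 (-0.06 ± 0.08) did not pass.

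Under FAC, 41 members were higher in KO than in WT and 1 was lower, where 24.6% of all tested genes were called higher and 24.9% lower. The median log2 fold change was 0.23 (all tested genes -0.01), and 72 members lay above 0. All 25 members that were higher in KO under AC were among the 41, as 25 of 25 in the one list and 25 of 41 in the other. The same overlap over all tested genes is not given here, so this one has no background to be set against. Complex IV had 12 of its 15 tested members higher, complex I 17 of 36, complex III 4 of 10, complex V 7 of 17 and complex II 1 of 4. This was the steadiest of the counts, with 32 to 39 higher and 1 lower when any one library was left out.

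Ndufv3, a small complex I subunit, had the largest rise in its complex, from 37.5, 35.1 and 39.3 CPM in WT FAC to 58.5, 64.4 and 64.3 in KO FAC (0.74 ± 0.10, adjusted p = 3.0e-05, edgeR). No libraries overlapped. Cox6a1 went from 234, 224 and 237 CPM to 355, 393 and 358 (0.67 ± 0.08, adjusted p = 2.3e-05). Sdhb, the iron-sulfur subunit of complex II (gene 67680, chromosome 4, 140961271 to 140979198), went from 109, 108 and 117 CPM to 123, 149 and 151 (0.34 ± 0.10, adjusted p = 0.0093). Also higher were Ndufb9 (0.66 ± 0.10), Ndufa8 (0.63 ± 0.13), Uqcr11 (0.49 ± 0.09), Uqcr10 (0.34 ± 0.08), Uqcrc1 (0.29 ± 0.06), Cox6c (0.52 ± 0.08), Atp5g1 (0.51 ± 0.10), Atp5e (0.46 ± 0.09) and Atp5k (0.40 ± 0.12). Sdha (0.06 ± 0.05), Cyc1 (0.06 ± 0.08), Cycs (0.08 ± 0.08), Uqcrfs1 (0.12 ± 0.07), Ndufv1 (0.11 ± 0.08), Atp5a1 (-0.07 ± 0.06) and Atp5b (0.10 ± 0.05) did not pass.

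Ndufs1, the largest complex I subunit of the matrix arm (gene 227197, chromosome 1, 63143592 to 63176822), was the member lower in KO under both treatments. Its level was 80.4, 81.2 and 77.4 CPM in WT AC and 72.4, 67.7 and 68.6 in KO AC (-0.20 ± 0.06, adjusted p = 0.019, edgeR). With FAC it was 86.4, 82.3 and 89.9 CPM in WT and 63.3, 64.5 and 66.2 in KO (-0.41 ± 0.06, adjusted p = 8.9e-05). The groups did not overlap under either treatment, and the call under FAC held in all 17 alternatives.

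**Figure D3:**
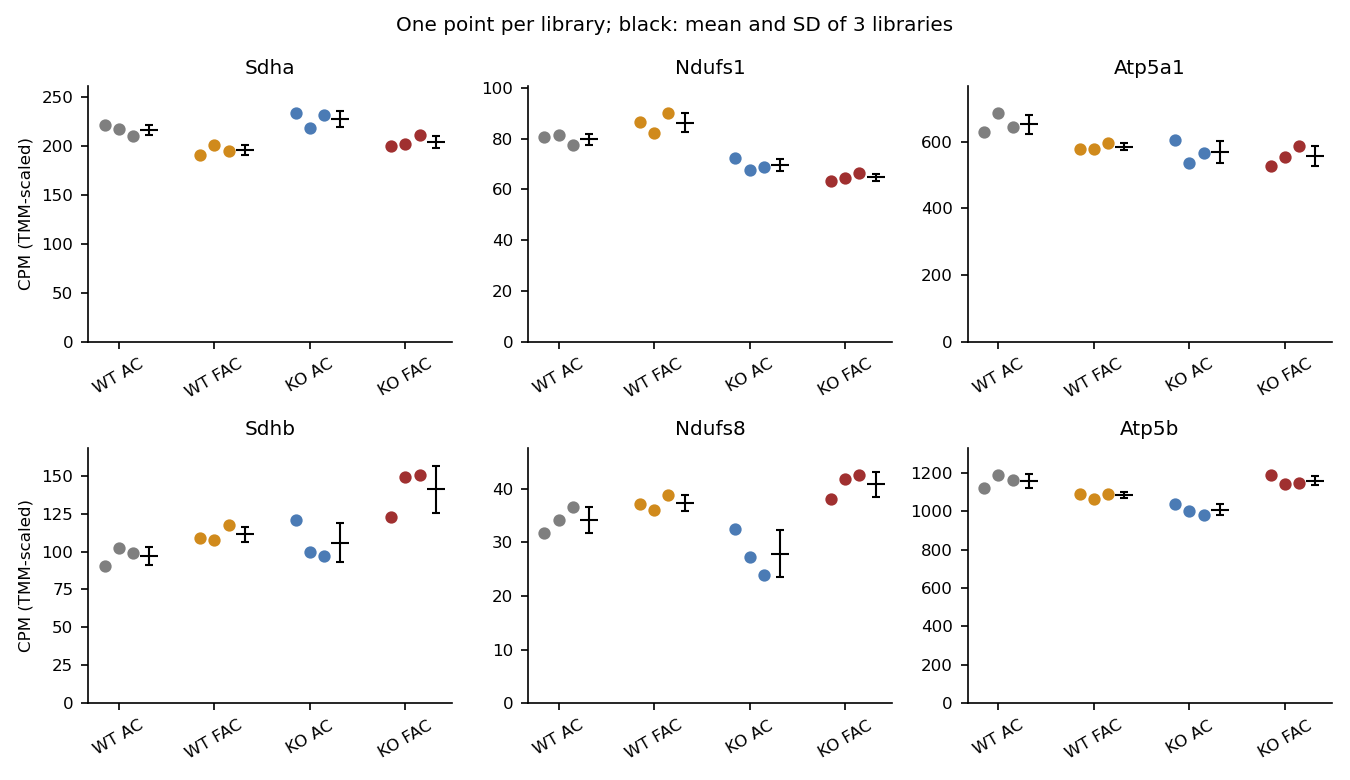
CPM (TMM-scaled, vertical axes from 0) of 6 members in each of the 12 libraries, with the mean and SD of 3 libraries beside each group. Sdha is lower and Sdhb higher in KO FAC than in KO AC, Ndufs1 is lower in both KO groups than in both WT groups, and Atp5b has its lowest values, 983 to 1041 CPM, in KO AC.

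Of the 4 subunits of complex II, FAC in KO lowered 1, raised 1 and left 2 uncalled. Sdha, the flavoprotein that oxidises succinate (gene 66945, chromosome 13, 74322255 to 74350240), was at 234, 218 and 232 CPM in KO AC and fell to 200, 202 and 211 in KO FAC (-0.16 ± 0.05, adjusted p = 0.045, edgeR). Sdhb, its partner in the same enzyme, rose from 121, 100.0 and 97.3 CPM to 123, 149 and 151 (0.41 ± 0.10, adjusted p = 0.0062). Neither pair of groups overlapped. The membrane anchors Sdhc (136 ± 11.9 and 146 ± 4.81 CPM, SD, n = 3) and Sdhd (103 ± 4.98 and 96.5 ± 1.62) were not called. In WT, Sdha went from 221, 218 and 210 CPM to 191, 201 and 196, also without overlap (-0.14 ± 0.05, adjusted p = 0.087), and Sdhb changed by 0.20 ± 0.10 (adjusted p = 0.18). The difference of the FAC effects between genotypes was -0.01 ± 0.08 for Sdha and 0.22 ± 0.14 for Sdhb. The fall of Sdha in KO was called in 7 of 16 alternatives and the rise of Sdhb in 15 of 16.

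Among functional groups, the 7 nuclear catalytic core subunits of complex I had 1 call with FAC in KO (14.3%, where 15% of all tested genes were called higher), and the 29 tested accessory subunits had 11. The difference between both groups was not tested. In KO against WT the core had 0 higher and 2 lower under AC and 1 higher (Ndufs7) and 1 lower under FAC, and the accessory subunits 10 and 16 higher and none lower. The median log2 fold change under FAC was 0.13 in the core and 0.26 in the accessory subunits. Of the 7 members that hold iron-sulfur clusters, 2 (Sdhb and Ndufs8) were called higher with FAC in KO and none in WT. Of the 4 haem-binding members, Cycs was called in WT, and Cycs and Cyc1 in KO. A total of 28 tested members were called in no comparison, among them Uqcrfs1, Ndufs3, Ndufv1, Ndufv2, Sdhc, Sdhd, Uqcrc2 and Atp5o.

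Tissue isoforms gave the largest fold changes. Ndufa4l2 (gene 407790, chromosome 10, 127509274 to 127517154) is a paralogue of Ndufa4, a subunit first assigned to complex I and now counted with complex IV, and is known as a gene induced by low oxygen. Its level was 35.7, 51.9 and 49.5 FPKM in WT AC, 44.8, 48.5 and 60.6 in WT FAC, 213, 183 and 195 in KO AC, and 160, 222 and 247 in KO FAC. Every KO library was above every WT library. KO exceeded WT by 2.19 ± 0.18 (log2, SE; adjusted p = 2.3e-06, edgeR), or 4.57-fold, under AC and by 2.16 ± 0.18 (adjusted p = 1.9e-06), or 4.46-fold, under FAC, in all 17 alternatives each. FAC itself gave 0.21 ± 0.18 in WT and 0.17 ± 0.17 in KO, neither of which passed. The Ndufa4l2 FPKM was 9.53% ± 1.57 of the Ndufa4 FPKM in WT AC, 9.83% ± 1.49 in WT FAC, 37.1% ± 4.09 in KO AC and 33.3% ± 5.31 in KO FAC (SD, n = 3). Ndufa4 itself was higher in KO by 0.26 ± 0.10 under AC and 0.39 ± 0.10 under FAC.

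Ndufa4l2 lies on the same chromosome as Nr1h4. The other members on chromosome 10 are Ndufa12, Ndufs7, Uqcr11, Atp5b and Atp5d, which are not all changed the same way: Ndufa12 and Uqcr11 were higher in KO under both treatments, Ndufs7 and Atp5d under FAC, and Atp5b was lower under AC. Sequence linked to the altered locus cannot be told apart from the loss of Fxr in this design.

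**Figure D4:**
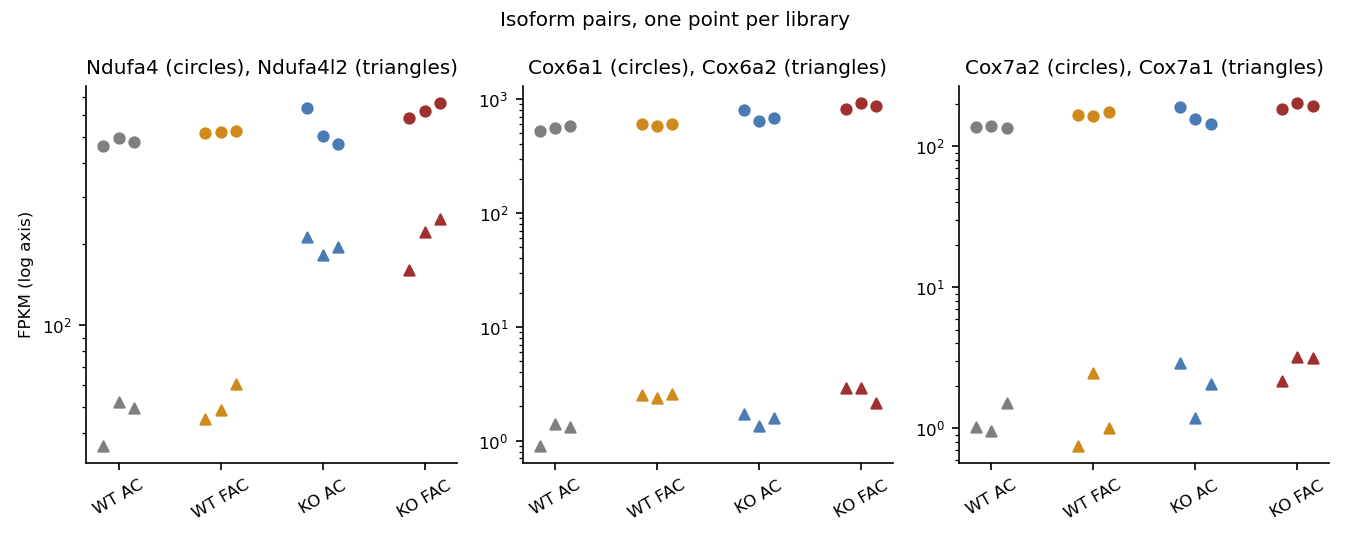
FPKM on log axes of 3 isoform pairs, with 1 point per library, circles for the common form and triangles for the other. Ndufa4l2 lies at 35.7 to 60.6 FPKM in WT and 160 to 247 in KO libraries, while Cox6a2 and Cox7a1 reach at most 3.18 FPKM in any library.

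Cox6a2, the heart and muscle form of subunit 6a (gene 12862, chromosome 7, 128205435 to 128206366), was near the lower limit of detection. It had 33 estimated reads over the 3 WT AC libraries, 68 in WT FAC, 43 in KO AC and 72 in KO FAC. In FPKM it was 0.90, 1.39 and 1.33 in WT AC and 2.54, 2.37 and 2.58 in WT FAC, with no overlap, and it rose by 1.08 ± 0.28 (adjusted p = 0.016, edgeR). In KO it went from 1.73, 1.35 and 1.57 FPKM to 2.89, 2.91 and 2.13 (0.85 ± 0.26, adjusted p = 0.026). It remained a minor form, at 0.22% of the Cox6a1 FPKM in both AC groups, 0.42% in WT FAC and 0.30% in KO FAC. Cox7a1, the muscle form of subunit 7a, had 14 to 34 estimated reads per group and was not called, with 1.11 ± 0.46 for KO against WT under FAC (adjusted p = 0.059).

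Transcript length moved with these results. Most subunits are small proteins with short transcripts: of the 79 tested members at a mean of at least 5 FPKM, 53 had an effective length under 800 bases, as implied by estimated counts and FPKM. With FAC in KO 41.5% of the short members were called higher and 19.2% of the 26 longer ones. Among 564 other genes of the same length class and level, 35.5% were called higher and 1.77% lower, against 15.5% and 18.01% of 6980 longer genes. With FAC in WT the shares called higher were 11.3% of the short members and 20.6% of the other short genes. Of the longer genes they were 3.85% of the members and 10.5% of the others. Short genes outside the set thus also rose with FAC, and their part in the members' result was not tested.

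The same shares were taken for KO against WT. Under AC 41.5% of the short members and 29.1% of the other short genes were called higher. Of the longer genes 11.5% of the members and 23.2% of the others were called higher under AC. Under FAC these shares of the longer genes were 26.9% and 24.0%. Of the short genes under FAC 62.3% of the members and 33.2% of the others were called higher, and 0 members but 18.3% of the others lower. Across the 79 members, effective length and log2 fold change had a Spearman rho of -0.37 for FAC in KO and -0.38 for KO under FAC. That correlation runs over genes measured in the same libraries and is given as a description.

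**Figure D5:**
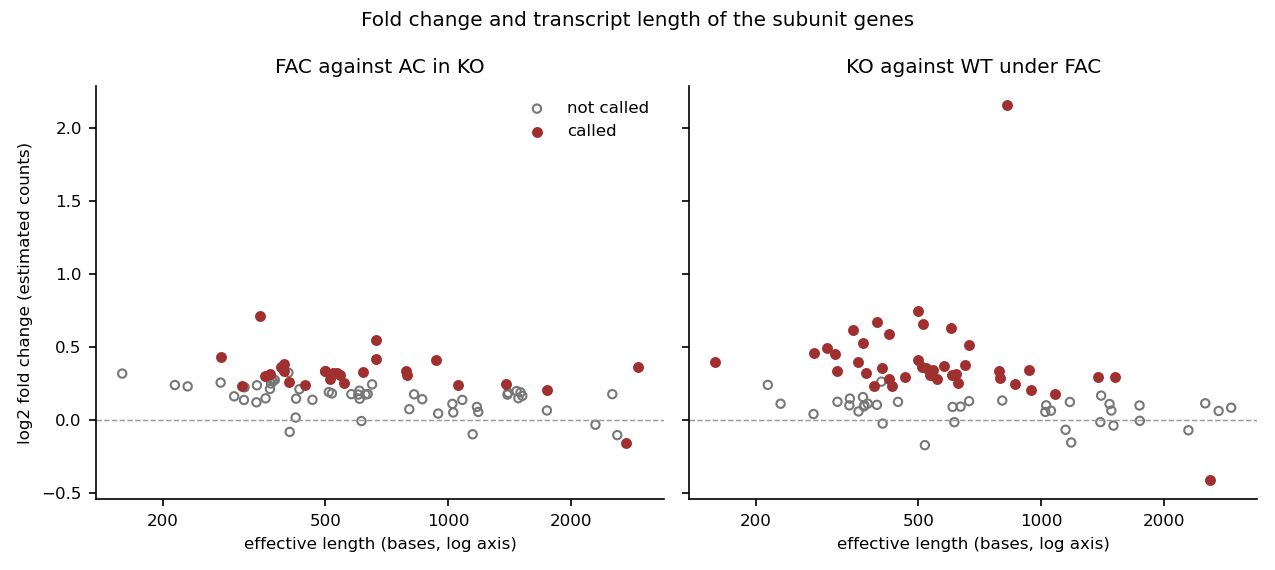
Log2 fold change (vertical axis) against effective transcript length in bases (log axis) for the 79 tested members at a mean of at least 5 FPKM. Filled points passed edgeR at an adjusted p under 0.05. With FAC in KO 22 of 53 members under 800 bases and 5 of 26 longer ones were called higher, and for KO under FAC 33 and 7. The members called lower in these comparisons, Sdha and Ndufs1, lie above 800 bases.

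Other genes of the pathway were counted by lists chosen by function. The shares of all tested genes called higher and lower were 8.7% and 8.55% with FAC in WT, 15% and 14.6% with FAC in KO, 21.7% and 21.2% in KO under AC, and 24.6% and 24.9% in KO under FAC. With lists of 5 to 22 tested genes most counts lay near or below these shares and are given as a description. Larger shares included the complex IV assembly genes higher in KO under AC (45.5%) and the citric acid cycle list higher with FAC in WT (29.4%). With FAC in KO they included the regulators called lower (27.8%) and the mitochondrial mass and import genes called higher (27.8%). Of 16 genes listed with complex I assembly, 3 were higher and 1 lower with FAC in KO and none was called in WT. One of the 3 was Ndufab1, a complex I subunit whose symbol the member rule does not match. In KO against WT 1 of the 16 was higher and 2 lower under AC, and 3 and 4 under FAC. Of 10 assembly genes of complexes II and III, 1 was higher and 2 lower with FAC in KO, among them Sdhaf2, which attaches the flavin to Sdha (-0.37 ± 0.08, adjusted p = 0.0040, edgeR). In WT 1 of these 10 was lower, KO gave 1 higher and 1 lower under AC, and 1 higher and 2 lower under FAC. Of 22 tested complex IV assembly genes 10 were higher and 1 lower in KO under AC and 5 and 0 under FAC. They were led by the membrane insertase Cox18 (0.82 ± 0.10 and 1.24 ± 0.10), Higd1a (0.66 ± 0.09 and 1.01 ± 0.09) and the copper chaperone Sco2 (0.82 ± 0.11 and 0.70 ± 0.11). FAC raised 1 of the 22 in WT and 4 in KO. Of 5 complex V assembly and inhibitor genes none was called with FAC in WT, 1 was higher and 1 lower with FAC in KO, 0 and 2 in KO under AC, and 1 and 2 in KO under FAC. Usmg5, a small protein bound to the ATP synthase, rose with FAC in KO (0.37 ± 0.09, adjusted p = 0.0077, edgeR) and was higher in KO under FAC (0.29 ± 0.09). Atpif1, which blocks the reverse reaction of the ATP synthase, was lower in KO by -0.64 ± 0.11 under AC and -0.93 ± 0.11 under FAC. Atpaf1, which assembles the catalytic head, fell with FAC in KO (-0.52 ± 0.08) and differed from its response in WT by -0.63 ± 0.11 (adjusted p = 0.0094, edgeR).

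Regulators of mitochondrial gene expression did not follow the subunits in 1 direction. Of 18 such genes FAC raised 1 in WT, and raised 1 and lowered 5 in KO, with Polg (-0.60 ± 0.08), Pprc1 (-0.51 ± 0.11) and Lrpprc (-0.43 ± 0.09) the largest. In KO against WT 3 were higher and 3 lower under AC, and 3 and 5 under FAC. The transcription factor Nrf1 was higher in KO under AC (0.42 ± 0.10) and FAC (0.28 ± 0.10), Esrra likewise (0.60 ± 0.10 and 0.36 ± 0.10), and Gabpa was lower under FAC (-0.50 ± 0.09). Of 17 genes of the citric acid cycle and pyruvate dehydrogenase, 5 were higher and 2 lower with FAC in WT, 3 and 1 with FAC in KO, and 3 and 1 and then 6 and 1 in KO under AC and FAC. Citrate synthase (Cs) was higher in KO by 0.31 ± 0.05 and 0.49 ± 0.05. Of 19 coenzyme Q and quinone reductase genes FAC raised 3 in WT, and raised 3 and lowered 2 in KO, and KO had 4 higher under AC and 5 higher and 1 lower under FAC. Of 18 genes of mitochondrial mass and import, FAC raised 1 in WT, and raised 5 and lowered 1 in KO, and KO had 2 higher and 4 lower under AC and 4 and 4 under FAC. Vdac1 of the outer membrane was higher in KO (0.49 ± 0.06 and 0.65 ± 0.06) and the chaperone gene Hspd1 lower (-0.44 ± 0.07 and -0.51 ± 0.07).

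Calls were also counted by promoter motif. Of the 31 members with a motif 10 were called higher with FAC in KO, and of the 35 tested members without one 13. For KO against WT under FAC the counts were 13 of 31 and 21 of 35. Of all tested genes 15% were called higher with FAC in KO and 24.6% in KO under FAC. The difference between these counts was not tested.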

How the data were processed

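RNA from 12 libraries of mouse primary hepatocytes was sequenced on a BGISEQ-500, per the labels' protocols. The submitters' processing notes name RSEM, mm10 and GRCm38.p6. For aligner, annotation release, strand setting and filters, the sources used here give nothing. Values deposited by the authors are estimated counts without normalization, FPKM values scaled by length and depth, and TPM values scaled to a fixed total.

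Estimated counts were rounded, TMM-scaled and tested in edgeR 4.0.16 (R 4.3.3) with a robust quasi-likelihood fit of the 4 groups. The filter filterByExpr (minimum count 10) left 12275 genes and removed 4453. Benjamini-Hochberg adjustment covered all tested genes. The SE is the absolute log2 fold change divided by the square root of F. The script was tested on simulated data. Alternatives used limma 3.58.1, DESeq2 1.42.0, other filters and scalings, and left out libraries. The members and lists were chosen with earlier results of these data known. Named genes are 11 fixed members and, per comparison and complex, up to 3 called members with the largest change in each direction at a mean of at least 5 FPKM in a compared group, with tissue isoforms named by level. Ndufa12, Ndufs7, Atp5o and the other examples outside this rule were chosen after their values were seen.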

Additional observations from a re-analysis of the deposited data

Results flagged for a closer look

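The test of different FAC responses between genotypes called 1 of the 82 tested members (1.22%). Of all tested genes 1.87% were called higher and 1.28% lower in it. Atp5b had a difference of the FAC effects (KO minus WT) of 0.30 on the log2 scale by the interaction test of edgeR (SE 0.07, adjusted p = 0.036). It was 1158 ± 35.4 CPM in WT AC, 1084 ± 15.0 in WT FAC, 1009 ± 29.5 in KO AC and 1161 ± 23.9 in KO FAC (SD, n = 3). With FAC it was lower in WT, by a difference that did not pass, and higher in KO. Over the 22 alternatives the difference ranged from 0.23 to 0.33 and the adjusted p from 0.00035 to 0.12, and 11 of them kept the call.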

How the results depend on the processing

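The 63 called values of named members gave 1032 values under the alternatives. Of these 813 kept their direction and their call, 219 kept the direction and lost the call, and none reversed, and 22 of the 63 values kept the call in every alternative run. One value that was not called reversed: Atp5b for KO against WT under FAC was -0.10 with limma on log2(TPM + 1). On that scale the member medians for FAC in WT (-0.0063) and for KO under AC (-0.033) also reversed.

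The number of all tested genes called also changed with the setting. For FAC in KO 862 of 12275 were called higher with limma on log2(TPM + 1), and 2453 of 12394 without KO AC 1 and KO FAC 4. Counts of members changed as follows, and the cause was not tested. FAC in WT gave 1 lower with the stricter filter, 3 lower with limma on log2(FPKM + 1) and on log2(FPKM + 0.1), 3 higher and 4 lower with limma on log2(TPM + 1), and 17 higher and 2 lower with the WT groups alone. FAC in KO gave 0 lower with median-of-ratios scaling and with no filter, 14 higher and 3 lower on both FPKM scales, 5 higher and 6 lower on TPM, 11 and 0 with the KO groups alone, and, with KO AC 1 left out, 61 and 0 when KO FAC 4 was dropped too and 53 and 0 when KO FAC 6 was. The difference of effects gave 0 with no filter, 2 with DESeq2, and 18 and 4 after the same removals. KO under AC gave 15 higher and 9 lower on both FPKM scales, 12 and 11 on TPM, 16 higher with the AC groups alone, and, after the same removals, 15 and 9 and then 13 higher. KO under FAC gave 26 higher and 6 lower on both FPKM scales and 18 and 11 on TPM. Leaving out 1 library at a time gave 0 to 7 higher for FAC in WT, 8 to 57 higher and 0 to 1 lower for FAC in KO, 0 to 5 higher for the difference, 13 to 32 higher and 1 to 6 lower for KO under AC, and 32 to 39 higher and 1 lower for KO under FAC.

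The labels number the WT and KO libraries alike, but same-numbered libraries did not deviate together: the correlations of their deviations were -0.14, -0.09 and 0.01 for AC and 0.10, -0.10 and 0.21 for FAC, and not every library correlated best with its own number. With the replicate block, KO under AC gave 9 higher and 0 lower, KO under FAC 41 and 1, and the difference 0. FAC and AC share no numbers, so no block could be fitted there. Cox6a2 and Cox7a1, with 33 to 72 and 14 to 34 estimated reads per group, are the tested members with the least depth behind a value given here.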
